A study of Mus musculus with 7 samples.

Results

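The genes of fatty acid uptake and beta-oxidation were examined in the lungs of bleomycin-challenged mice with or without hyperbaric oxygen (HBO). The 31 genes were chosen by name from the 55401 genes counted, for their place in the pathway, with earlier results of these data known. Bleomycin is a cytotoxic antibiotic that injures and scars the lung, and HBO is oxygen breathed at raised pressure in a chamber. Male C57BL/6 mice, 6 to 8 weeks old, all received bleomycin, and their lungs were taken on day 21. The BLM+HBO group (n = 3) breathed HBO at 2.5 ATA for 90 min daily on 14 days from day 7, and the BLM group (n = 4) did not. Sources differ on the BLM mice, which either sat in the unpressurised chamber or stayed untreated, and their handling was not settled here. Lungs without bleomycin were not analysed here, so the values describe HBO within injured lungs. RNA came from lung lobes with all their cell types, so fewer cells of a type and less RNA per cell cannot be told apart.

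Beta-oxidation shortens fatty acids by pairs of carbons and passes the electrons to the respiratory chain. Fatty acids are released from lipoproteins by Lpl, enter cells through carriers such as Cd36, are bound by Fabp proteins and are activated to acyl-CoA by the Acsl enzymes. Long chains cross into mitochondria on carnitine, through Cpt1 at the outer membrane, the carrier Slc25a20 and Cpt2 at the inner membrane. The acyl-CoA dehydrogenases, hydratases, 3-hydroxyacyl-CoA dehydrogenases and thiolases then act in turn, and the nuclear receptor Ppara with the coactivator Ppargc1a drives many of these genes. In lung, alveolar type 2 cells and macrophages are among the cells known for a high turnover of fatty acids.

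The following 4 stretches of upstream DNA are shown because they belong to the genes on which the description turns. Acsl1 was the member with the smallest P and has 2 annotated starts, Hadha and Hadhb lie head to head and encode the subunits of a shared complex, and Cd36 had the highest level. The letters are those of RefSeq promoter windows (GRCm38.p6), cut to the bases before the start and outside annotated exons, written 5′ to 3′ along the strand named, with CG dinucleotides in capitals.
Acsl1, upstream of the start at the gene's 5′ end, chr8:46470787-46471036, plus strand: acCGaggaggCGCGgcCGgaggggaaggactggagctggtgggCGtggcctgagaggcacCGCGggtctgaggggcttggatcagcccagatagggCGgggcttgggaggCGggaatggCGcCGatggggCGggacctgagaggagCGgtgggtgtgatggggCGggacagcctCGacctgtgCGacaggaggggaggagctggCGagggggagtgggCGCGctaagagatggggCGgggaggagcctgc
Acsl1, upstream of the internal start, chr8:46490716-46490965, plus strand: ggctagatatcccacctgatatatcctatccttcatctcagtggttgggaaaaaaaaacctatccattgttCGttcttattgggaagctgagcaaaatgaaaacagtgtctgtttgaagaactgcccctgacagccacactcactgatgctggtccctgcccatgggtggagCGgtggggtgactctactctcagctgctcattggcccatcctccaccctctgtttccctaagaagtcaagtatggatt
Hadha and Hadhb, the bases between them, chr5:30155163-30155247, plus strand: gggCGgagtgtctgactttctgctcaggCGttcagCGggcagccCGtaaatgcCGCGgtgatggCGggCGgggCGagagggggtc
Cd36, upstream of a RefSeq start inside the gene, chr5:17835897-17836146, minus strand: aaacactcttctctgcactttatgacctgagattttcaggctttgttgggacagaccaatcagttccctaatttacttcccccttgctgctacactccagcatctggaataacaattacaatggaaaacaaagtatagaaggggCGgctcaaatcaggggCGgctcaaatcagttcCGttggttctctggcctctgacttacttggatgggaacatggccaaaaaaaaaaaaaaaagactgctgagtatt

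The upstream sequences differed in base composition. The stretch before the 5′ start of Acsl1 held 20 CG dinucleotides in 250 bases at 72.0% G and C, whereas that before its internal start held 2 at 48.4%. The 85 bases between Hadha and Hadhb held 9 at 69.4%, and the Cd36 stretch held 3 at 43.2%. Windows were found for 26 of the 31 genes, 27 windows in all, and not for Lpl, Cpt1b, Ppargc1b, Decr1 and Acaa2. Their median was 12 CG dinucleotides in the 250 bases before the start, against 6 over all 32851 windows, and 22 of 27 windows (81.5%) held at least 8, against 43.0% of all windows. At the low end with Cd36 stood Ucp3 with 3 and Ppargc1a with 5, and at the high end Ppara with 27. Most windows of the pathway were richer in CG than the median window.

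Motifs of the pathway's regulators were searched on both strands of the whole windows, 250 bases before to 50 after the start. The estrogen-related receptor motif TNAAGGTCA was in 0 of the 27 windows and in 1.28% of all windows. The PPAR motif AGGTCANAGGTCA, a direct repeat that shares the half-site of the receptor motif above, was in 0 of 27 and in 0.0396% of all, and its looser form AGGNCANAGGNCA was in 0 of 27 and in 0.381% of all. The E-box CACGTG was in 0 of 27 and in 7.15% of all. These counts say only that the letters are not in these windows.

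Total counts ran from 18157161 to 26365969. BLM+HBO 2 stood apart from the other BLM+HBO mice, since on the first principal component (37.3% of the variance) it lay at -0.996, beside BLM mice between -47.6 and -6.08, with BLM+HBO 1 at 54.8 and BLM+HBO 3 at 37.8. Results that rest on this mouse are given with and without it. Of the lists of lung markers, those of alveolar type 2 cells (Sftpc from 4549 to 16262 CPM, the count scaled to the library's size) and of capillary endothelium were present in each library.

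Set beside each other per length of exon, the 31 genes spanned more than 3 orders of magnitude. Cd36, the fatty acid carrier, stood first with a mean of 250.05 RPKM (the TMM-scaled CPM divided by exon length in kilobases), and its lowest mouse (204.6) lay above the highest mouse of any other member. A second tier held the thiolase Acaa2 (58.8), the long-chain dehydrogenase Acadl (58.1) and the lipase Lpl (52.5), which overlapped across mice, then Etfa (37.7) and the peroxisomal thiolase Acaa1a (36.8). From Acadm (17.9) down to Slc25a20 (8.89), 14 genes formed a run in which each overlapped the next. Etfb, Ppard, Acot2, Etfdh, Acsl1 and Ehhadh followed between 6.03 and 3.68. The lowest tier held Ppargc1a (0.750), Ucp3 (0.464), Ppara (0.428) and Ppargc1b (0.325), so the transcription factors and coactivators, Ppard apart, were the scarce members. Cpt1b came last at 0.0554.

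**Figure D1:**
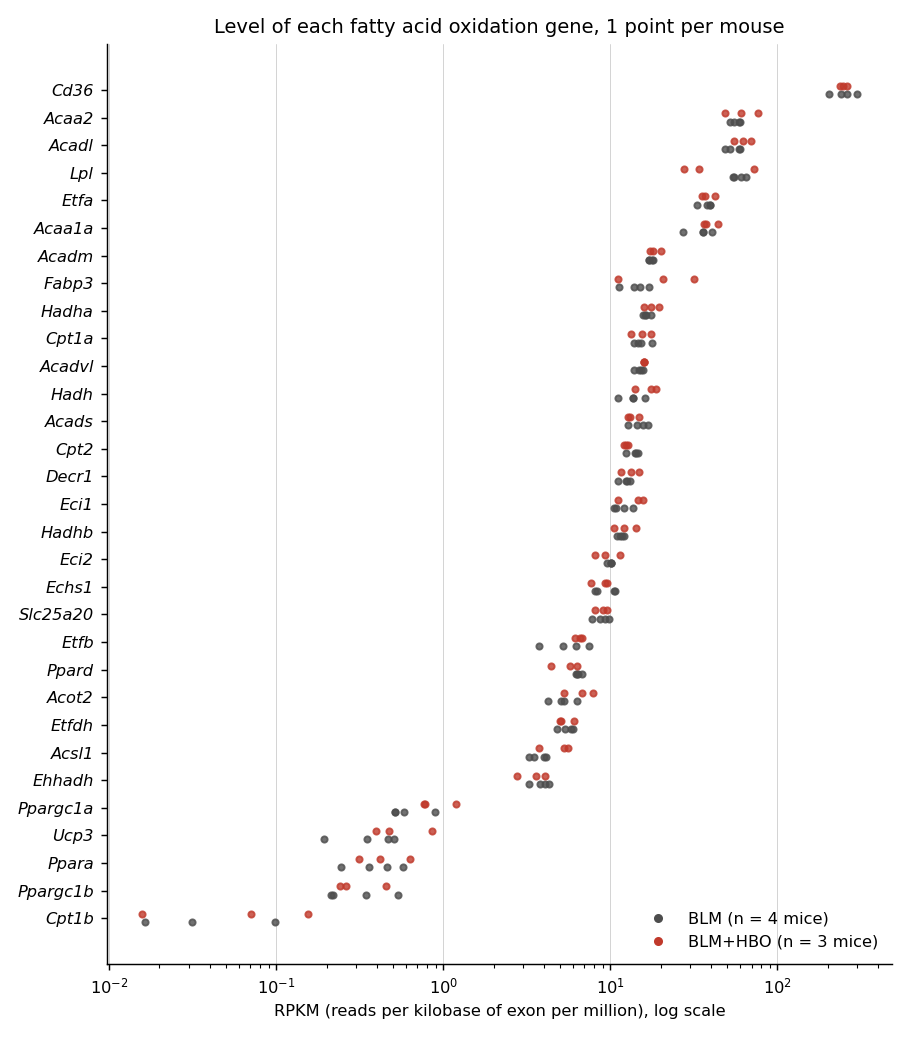
Level of each of the 31 genes in RPKM on a log axis, 1 point per mouse (grey, BLM, n = 4; red, BLM+HBO, n = 3), ordered by mean. Cd36 at 250.05 stands alone at the top and Cpt1b at 0.0554 at the bottom, where the BLM mouse with 0 reads is not drawn.

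For 10 genes the level is a lower limit, because at the counter's default settings a read lying in exons of more than 1 gene is not assigned. Of the exon bases of Cpt1b, the muscle form of carnitine palmitoyltransferase 1, 81.4% also lie in exons of Gm44502, a coding gene on the same strand whose own exon bases are all shared and which had 0 reads in each mouse. The Cpt1b counts were 1, 0, 6 and 2 in BLM 1 to BLM 4 and 1, 5 and 14 in BLM+HBO 1 to BLM+HBO 3, too few to pass the filter, and at these settings they can come only from the remaining bases. No fold change is given for Cpt1b. Etfb shared 58.2% of its exon bases with Gm45233 and Mir7051, and Gm45233, a coding gene, had 0 reads in 6 mice and 2 in BLM 4. Its partner Etfa, with which it forms a heterodimer, shared none, and Etfa had 6.26 times the level of Etfb per length. Acadvl shared 42.9% with Dvl2 on the other strand and Fabp3 shared 19.6% with Zcchc17 and Gm10570. Acsl1 shared 9.91% with Gm45244, and Acaa1a, Etfdh, Eci2, Echs1 and Hadha shared between 0.859% and 6.57%. Acot2 and Acaa1a have near-identical neighbours, Acot1 and Acaa1b, between which reads may be lost or split.

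Few genes of the pathway differed detectably between the groups. Of the 30 genes tested, 0 passed the study's limits of P below 0.05 with a fold change above 1.5, where 3.40% of the 17465 genes tested did so upward and 2.89% downward. At P below 0.05 alone there was 1 gene, Acsl1, by edgeR's quasi-likelihood test, against 10.7% of all genes. After Benjamini-Hochberg adjustment over all genes, 0 members were below 0.05 by edgeR (lowest adjusted P = 0.442), 0 by DESeq2 and 0 by limma-trend. DESeq2 placed 123 of all genes below that limit, and edgeR and limma-trend placed 0, with 1861 and 1953 at an unadjusted P below 0.05. The mean was higher in BLM+HBO for 19 members and lower for 11, with a median log2 fold change of 0.09, against 0.01 over all genes tested.

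The intervals say how far this reaches. For 20 of the 30 genes (66.7%) the 95% interval of the fold change lay within 1.5-fold in either direction, against 47.1% of all genes tested, and for 24 it lay within 2-fold. The 10 genes with wider intervals were Lpl, Fabp3, Acsl1, Acot2, Hadh, Etfb, Ppara, Ppargc1a, Ppargc1b and Ucp3, and for these a change of that size lies within the interval. The members were a little steadier within groups than genes at large, with a median within-group SD of log2 CPM of 0.19 against 0.25. In BLM it was 0.16 against 0.23, and in BLM+HBO nearly equal at 0.21 against 0.23. Genes at large were not matched to the members on level, here or for the intervals. The scarce regulators, Ucp3, Fabp3 and Lpl carried most of the spread, from Ucp3 (0.56) and Ppargc1b (0.54) to Fabp3 (0.51) and Lpl (0.47). The steadiest were Acadvl (0.06), Acadm (0.07) and Cpt2 (0.08).

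**Figure D2:**
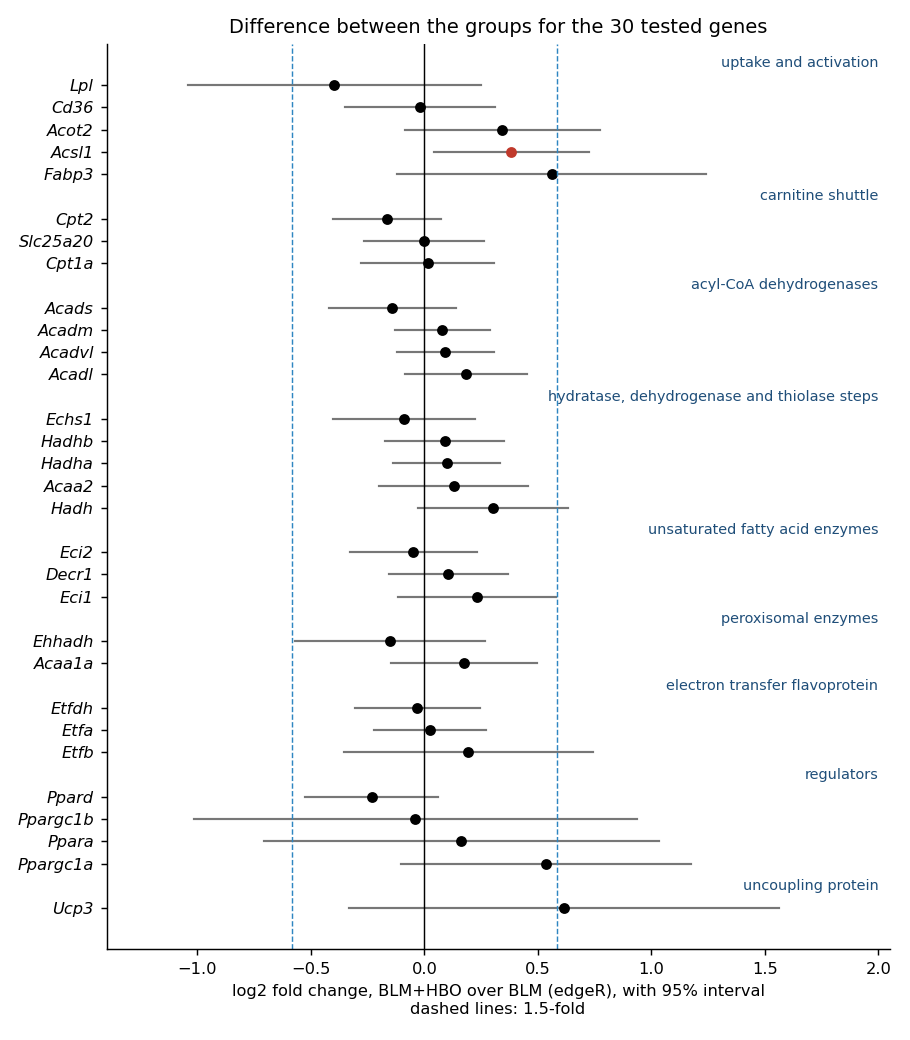
Log2 fold change of BLM+HBO over BLM by edgeR for the 30 tested genes, grouped by role, with 95% intervals (bars) and 1.5-fold limits (dashed). Acsl1 (red, 0.38) is the only gene whose interval leaves 0, and the genes of the carnitine shuttle lie at 0.01 or below.

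Among uptake and activation genes, log2 fold changes ran from -0.40 to 0.56. Acsl1 (chr8:46471037-46536051, plus strand, GRCm38), the long-chain acyl-CoA synthetase whose upstream sequences are printed above, measured 43.0, 42.2, 34.2 and 36.6 CPM in BLM 1 to BLM 4 and 58.2, 39.3 and 55.0 CPM in BLM+HBO 1 to BLM+HBO 3. BLM+HBO 1 and BLM+HBO 3 lay above all BLM mice, and BLM+HBO 2 lay among them. The means were 39.0 ± 4.29 (SD, n = 4) and 50.9 ± 10.1 (SD, n = 3), a log2 fold change of 0.38 (SE 0.15, unadjusted P below 0.05, adjusted P = 0.442). Without BLM+HBO 2 it was 0.54 (adjusted P = 0.0879), and its unadjusted P was above 0.05 when BLM 3, BLM 4, BLM+HBO 1 or BLM+HBO 3 was left out, the lowest value being 0.28 without BLM+HBO 1. Its adjusted P over all alternatives ran from 0.0879 to 0.802. The counts do not say which of the 2 starts was used. The summed level of 10 alveolar type 2 cell markers was 25530, 12083 and 29298 CPM in BLM+HBO 1 to BLM+HBO 3, lowest in BLM+HBO 2 as Acsl1 was, with 2 of the 10 higher and 0 lower at P below 0.05. In BLM 1 to BLM 4 it was 9567, 17420, 16706 and 16039 CPM, and BLM 1, with the most Acsl1 of these, had the lowest sum. Its part in the result was not tested.

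Lpl (chr8:68880491-68907448, plus strand), the lipase that frees fatty acids from lipoproteins, stood out for its spread among the HBO-treated mice. It measured 679, 632, 576 and 568 CPM in BLM 1 to BLM 4 and 290, 755 and 354 CPM in BLM+HBO 1 to BLM+HBO 3. BLM+HBO 1 and BLM+HBO 3 lay well below all BLM mice, and BLM+HBO 2 lay above all of them. Over all mice the log2 fold change was -0.40 (SE 0.29, adjusted P = 0.641), with an SD of log2 CPM of 0.73 in BLM+HBO against 0.12 in BLM. Without BLM+HBO 2 it was -0.93 (SE 0.15, adjusted P = 0.031), the only member below an adjusted P of 0.05 in any fit, and without BLM+HBO 1 it was -0.15 (unadjusted P above 0.05). Over all alternatives its adjusted P ran from 0.0308 to 0.910. BLM+HBO 2 was singled out from these same data, so the fit without it is no separate support for a fall in Lpl. The summed markers of fibrosis-associated macrophages (10 genes, 5 lower and 0 higher at P below 0.05) were at 2174, 5531 and 2471 CPM in BLM+HBO 1 to BLM+HBO 3. In BLM they were at 5781 to 6983 CPM. BLM+HBO 2, which had the most Lpl of all mice, lay below each BLM mouse in this sum. Spp1 made up most of it in BLM and BLM+HBO 2, at 3820 to 4952 and 3054 CPM. Arg1 in BLM+HBO 2 also lay below each BLM mouse, Mmp12 (533 CPM) lay above each, and the other markers lay inside the BLM range. The summed markers of matrix-producing fibroblasts (9 genes, 8 lower and 0 higher) were at 2630, 10454 and 5012 against 9797 to 15680 CPM, with BLM+HBO 2 inside the BLM range. Both sums were highest in BLM+HBO 2 within its group, as Lpl was. The part of either cell type in the level of Lpl was not tested.

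Fabp3, the fatty acid binding protein of heart and other oxidative tissues, measured 13.9, 12.5, 11.5 and 9.27 CPM in BLM 1 to BLM 4 and 26.03, 17.1 and 9.19 CPM in BLM+HBO 1 to BLM+HBO 3. BLM+HBO 1 and BLM+HBO 2 lay above all BLM mice and BLM+HBO 3 was level with the lowest of them. The log2 fold change was 0.56 (SE 0.30, adjusted P = 0.542), and without BLM+HBO 3 it was 0.87 (unadjusted P below 0.05, adjusted P = 0.500), but without BLM+HBO 1 it was 0.15 (unadjusted P above 0.05). Heart muscle transcripts were present in unequal amounts: their summed level over 27 genes was 964, 715 and 232 CPM in BLM+HBO 1 to BLM+HBO 3 and 95.8, 182, 145 and 246 CPM in BLM 1 to BLM 4, and 23 of the 25 tested were higher at P below 0.05, with 0 lower. Myh6, a heart myosin chain, had a log2 fold change of 2.78. Fabp3 followed that order in BLM+HBO and not in BLM, where BLM 4 had the most heart transcript and the least Fabp3, and the part of heart tissue in Fabp3 was not tested. Skeletal muscle markers summed to between 7.43 and 11.6 CPM in all mice.

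**Figure D3:**
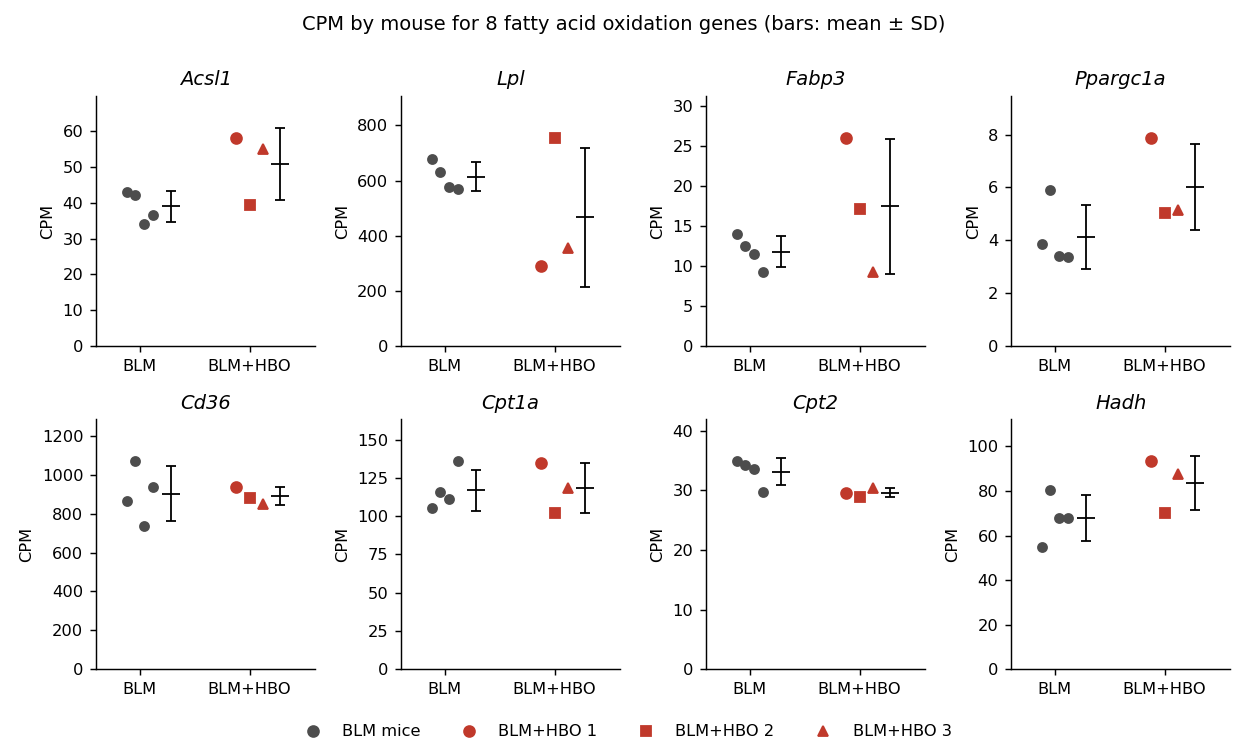
CPM by mouse for 8 members, with BLM mice in grey, BLM+HBO mice in red by symbol, and mean ± SD at the side of each group. BLM+HBO 2 (square) has the highest Lpl of all mice at 755 and the lowest Acsl1 of its group at 39.3, and Cd36, Cpt1a and Cpt2 lie close together.

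Cd36 (chr5:17781690-17888801, minus strand) measured 867, 1071, 735 and 939 CPM in BLM 1 to BLM 4 and 940, 883 and 849 CPM in BLM+HBO 1 to BLM+HBO 3. The treated mice fell inside the range of the BLM mice, and the log2 fold change was -0.02 (SE 0.15, 95% interval -0.35 to 0.31). The mitochondrial acyl-CoA thioesterase Acot2, which releases fatty acid from its CoA, ranged from 9.31 to 13.8 CPM in BLM and from 11.6 to 17.2 CPM in BLM+HBO, at a log2 fold change of 0.34 (adjusted P = 0.549).

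The 3 tested genes of the carnitine shuttle had fold changes whose intervals lay within 1.5-fold. Cpt1a (chr19:3322334-3385733, plus strand), the liver-type form of the entry enzyme and the step at which the pathway is known to be controlled, measured 105, 116, 111 and 136 CPM in BLM 1 to BLM 4 and 135, 102 and 118 CPM in BLM+HBO 1 to BLM+HBO 3. The ranges lay over each other, with a log2 fold change of 0.01 (SE 0.13, 95% interval -0.28 to 0.31). The carrier Slc25a20 measured 37.4, 41.9, 45.2 and 47.8 CPM in BLM and 46.1, 39.0 and 43.9 CPM in BLM+HBO, with the log2 fold change at -0.00 and an interval from -0.27 to 0.26. Cpt2 measured 34.9, 34.3, 33.6 and 29.8 CPM in BLM and 29.5, 28.9 and 30.4 CPM in BLM+HBO. Its treated mice lay at the level of the lowest BLM mouse, below the other 3, with a log2 fold change of -0.16 (SE 0.11, adjusted P = 0.607, 95% interval -0.40 to 0.07). Per length, Cpt2 ran at 0.859 of Cpt1a, from 0.700 to 1.06 by mouse.

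The acyl-CoA dehydrogenases, which open each round for chains of a given length, showed narrow intervals. Log2 fold changes were 0.09 for Acadvl, 0.18 for Acadl, 0.08 for Acadm and -0.14 for Acads, with 3 of 4 means higher and 0 at P below 0.05 (lowest adjusted P = 0.607). Acadvl, the very-long-chain enzyme, was the only member whose groups did not overlap, in a design where 8.77% of all genes tested did not overlap. It measured 41.1, 40.1, 37.2 and 42.1 CPM in BLM and 42.9, 42.6 and 42.9 CPM in BLM+HBO, a step of 0.09 on the log2 scale (adjusted P = 0.755). The separation was small beside the level.

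Among the later steps of the spiral, 4 of 5 genes had a higher mean in BLM+HBO and 0 were at P below 0.05. Hadha and Hadhb, subunits of the mitochondrial trifunctional protein whose genes flank the 85 bases shown above, had like fold changes of 0.10 and 0.09 (intervals -0.14 to 0.33 and -0.17 to 0.35). Per length, Hadhb ran at 0.697 of Hadha, and by mouse from 0.538 in BLM+HBO 3 to 0.813 in BLM+HBO 1, so the pair did not hold a fixed ratio. Hadh, the dehydrogenase for medium and short chains, measured 55.1, 80.7, 67.8 and 67.7 CPM in BLM and 93.4, 70.1 and 87.4 CPM in BLM+HBO. BLM+HBO 1 and BLM+HBO 3 exceeded all BLM mice, and the log2 fold change was 0.30 (SE 0.15, adjusted P = 0.500), or 0.41 (adjusted P = 0.228) without BLM+HBO 2. The thiolase Acaa2 was at 0.13 (adjusted P = 0.781) and the hydratase Echs1 at -0.09 (adjusted P = 0.849).

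The enzymes for unsaturated chains gave log2 fold changes of 0.23 for the isomerase Eci1 (adjusted P = 0.615), -0.05 for the isomerase Eci2 and 0.11 for the reductase Decr1. In the peroxisome, the bifunctional enzyme Ehhadh was at -0.15 and the thiolase Acaa1a at 0.17 (adjusted P = 0.801 and adjusted P = 0.684). The electron transfer flavoprotein, which carries electrons from the dehydrogenases to the respiratory chain, gave 0.03 for Etfa, 0.19 for Etfb and -0.03 for its oxidoreductase Etfdh. None of these 8 genes separated the groups.

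The regulators, Ppard apart, were few in reads and wide in interval. Ppargc1a, the coactivator of mitochondrial biogenesis, measured 3.85, 5.92, 3.40 and 3.37 CPM in BLM and 7.88, 5.03 and 5.14 CPM in BLM+HBO. Only BLM 2 reached the range of the treated mice. The log2 fold change was 0.54 (SE 0.29, adjusted P = 0.533), and without BLM 2 it was 0.76 (unadjusted P below 0.05, adjusted P = 0.690), but without BLM+HBO 1 it was 0.30 (unadjusted P above 0.05). Ppara, the fatty acid receptor that induces the pathway in liver, measured 1.76, 2.20, 0.933 and 1.37 CPM in BLM and 1.597, 1.197 and 2.44 CPM in BLM+HBO. Its interval, -0.71 to 1.04, holds a change of 1.5-fold in either direction, so little can be said of its direction. Ppard, the widely expressed PPAR, was at -0.23 (adjusted P = 0.553), with BLM mice between 47.0 and 50.9 CPM and BLM+HBO mice between 33.0 and 47.3. Ppargc1b was at -0.04 (interval -1.02 to 0.94). Ucp3, an uncoupling protein of muscle and brown fat, measured 0.606, 1.47, 1.10 and 1.58 CPM in BLM and 1.49, 1.24 and 2.70 CPM in BLM+HBO, at a log2 fold change of 0.62 (SE 0.42, adjusted P = 0.622), the only one above 1.5-fold, but at 0.20 without BLM+HBO 3. The 9 white fat cell markers found summed to between 52.6 and 84.4 CPM in BLM and between 51.0 and 78.0 CPM in BLM+HBO, most of it Lipe, with Plin4 higher at P below 0.05, and Adipoq and Plin1 below 0.8 CPM in each mouse. The 6 brown fat cell markers summed to between 5.69 and 11.5 CPM in BLM and between 5.38 and 8.95 CPM in BLM+HBO. Most of it was Dio2 except in BLM+HBO 1, where Dio2 was at 1.54 CPM and Cpn2 at 2.18 CPM. Ucp1 lay below 0.3 CPM in each mouse. The part of fat cells in these levels was not tested.

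The separate position of BLM+HBO 2 bore on the count of members. Without this mouse, 6 of 30 genes (20.0%) were at P below 0.05, with Acsl1, Acot2, Hadh and Eci1 higher and Lpl and Ppard lower, while the share of all genes at P below 0.05 was 15.9%. Of these, Lpl passed both limits. Without it the log2 fold changes of Acot2, Eci1 and Ppard were 0.48, 0.37 and -0.34. Without BLM 2 there were 3 genes at P below 0.05 (Acsl1, Hadh and Ppargc1a) and 7.05% of all genes, and without BLM+HBO 3 only Fabp3, with 7.14% of all genes. Without BLM 3 or BLM 4 there were 0, against 11.98% and 11.14% of all genes. Without BLM+HBO 1 there were also 0, against 5.70% of all genes. Over all alternatives the adjusted P ran from 0.411 to 0.910 for Fabp3, from 0.228 to 0.820 for Hadh and from 0.369 to 0.850 for Ppargc1a.

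**Figure D4:**
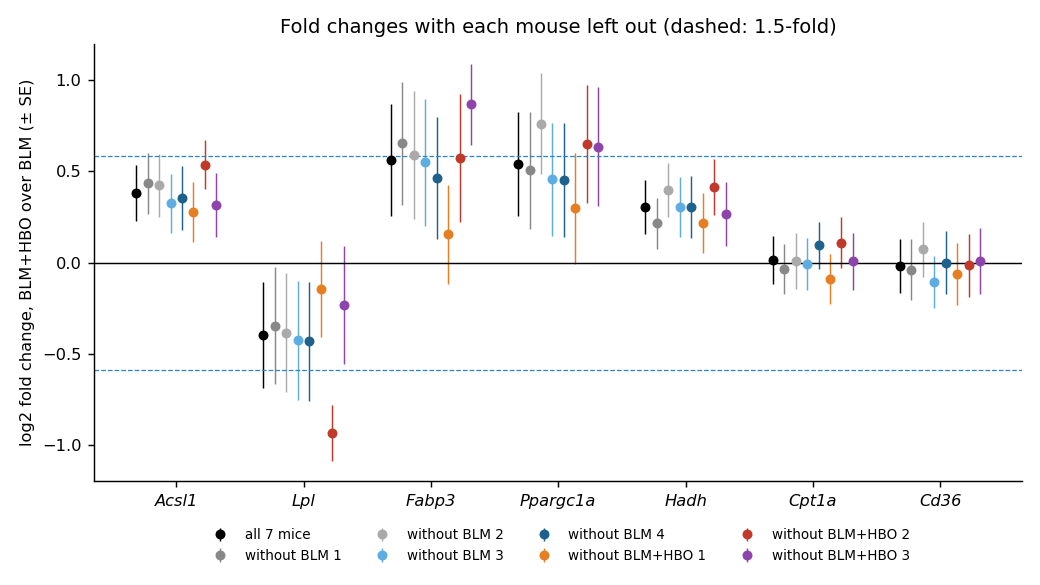
Log2 fold change ± SE (edgeR) for 7 members with all mice (black) and with each mouse left out (colours), with 1.5-fold limits dashed. Lpl moves from -0.40 to -0.93 without BLM+HBO 2, and Cpt1a and Cd36 stay near 0 throughout.

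Around these 31 genes, 117 other genes of lipid transport, oxidation and their control were listed, of which 107 were tested. At both limits 4 were higher and 3 lower in BLM+HBO, and at P below 0.05 alone 6 were higher and 4 lower. That is 9.35%, against 10.7% of all genes. The groups did not overlap in CPM for 9 of the 107, in a design where 8.77% of all genes tested did not overlap. The median log2 fold change was 0.05. The 3 that fell past both limits are described first. Angptl4, a secreted inhibitor of Lpl, measured 68.8, 63.7, 86.9 and 98.2 CPM in BLM and 39.4, 60.1 and 47.5 CPM in BLM+HBO, without overlap, at a log2 fold change of -0.70 (SE 0.19, adjusted P = 0.423). Fabp4, the fatty acid binding protein of fat cells, macrophages and endothelium, measured 14.3, 14.2, 15.8 and 18.1 CPM in BLM and 9.90, 11.9 and 8.47 CPM in BLM+HBO, without overlap, at -0.63 (SE 0.17, adjusted P = 0.423). Acsl6, an acyl-CoA synthetase of brain and red cells, measured 7.54, 2.42, 3.73 and 3.42 CPM in BLM and 0.106, 2.49 and 0.900 CPM in BLM+HBO, at -1.87 (SE 0.73, adjusted P = 0.440).

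Acss1, the mitochondrial enzyme that activates acetate, measured 24.1, 30.3, 37.6 and 36.2 CPM in BLM and 57.2, 43.3 and 77.4 CPM in BLM+HBO. All treated mice exceeded all BLM mice, at a log2 fold change of 0.89 (SE 0.21, adjusted P = 0.423 by edgeR and adjusted P = 0.0262 by DESeq2). G0s2, an inhibitor of the triglyceride lipase Pnpla2, was at 0.69 (adjusted P = 0.459), with BLM+HBO 1 at 48.7 CPM and BLM mice between 15.4 and 24.9 CPM, and at 0.24 without it, with an unadjusted P above 0.05. Mlxipl, a carbohydrate-sensing transcription factor, was at 0.997 (adjusted P = 0.447), with 0.496 to 1.65 CPM in BLM and 1.81 to 2.93 CPM in BLM+HBO. With each mouse left out in turn, Acss1 (0.64 to 1.07), Angptl4 (-0.87 to -0.56) and Fabp4 (-0.76 to -0.52) kept an unadjusted P below 0.05. Acsl6, Mlxipl and G0s2 did not: Acsl6 (-2.99 to -1.35) lost it without BLM 1 or BLM+HBO 3, Mlxipl (0.74 to 1.18) when either of BLM 1 and 2 or either of BLM+HBO 2 and 3 was dropped, and G0s2 (0.24 to 0.97) without any mouse but BLM 4 or BLM+HBO 2. The adjusted P of Acss1 ran from 0.00429 to 0.802 over all alternatives.

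Below 1.5-fold, the carnitine transporter Slc22a5 did not overlap between the groups, with 20.4 to 26.7 CPM in BLM and 28.5 to 34.7 CPM in BLM+HBO (0.44, unadjusted P below 0.05, adjusted P = 0.423). Acsf2 was at 0.35 (adjusted P = 0.467) and the monoglyceride lipase Mgll at -0.49 (adjusted P = 0.459).

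**Figure D5:**
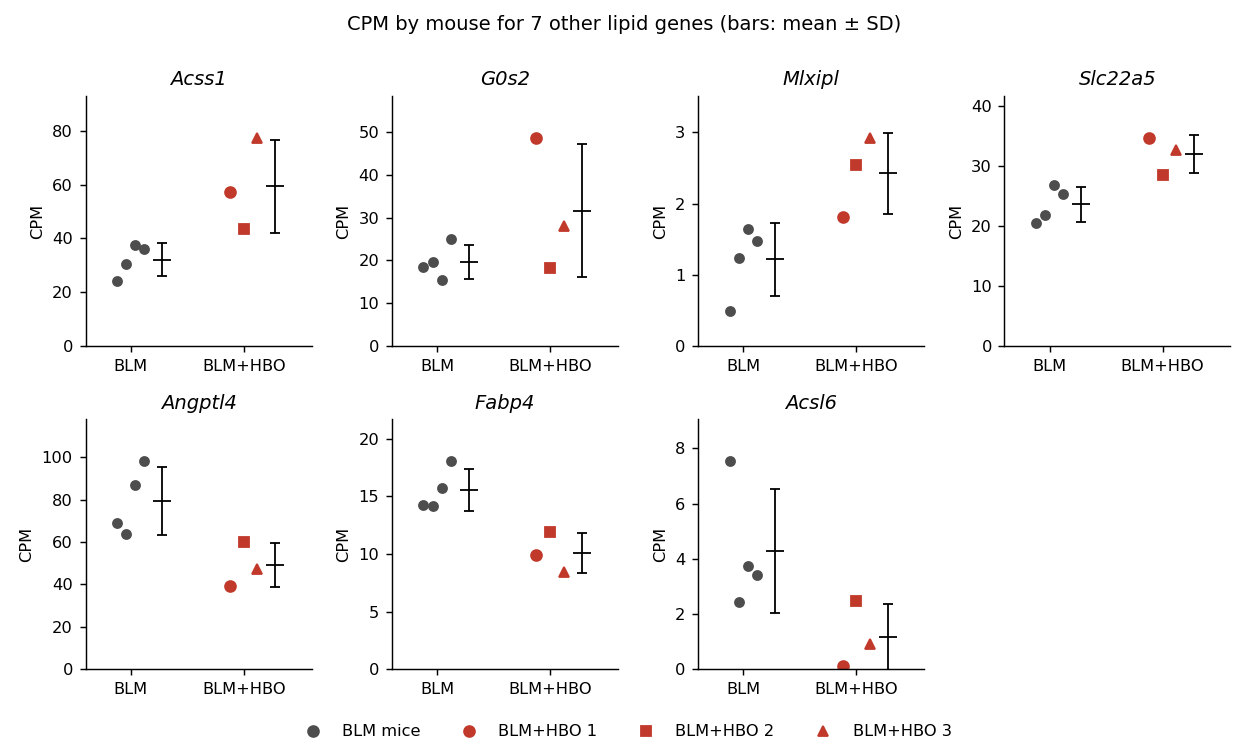
CPM by mouse for 7 other lipid genes, drawn as for the members, with mean ± SD. Acss1, Mlxipl and Slc22a5 lie higher and Angptl4 and Fabp4 lower in all 3 BLM+HBO mice than in any BLM mouse, and G0s2 and Acsl6 overlap. Groups did not overlap for 9 of the 107 other lipid genes tested, against 8.77% of all genes tested.

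Other targets and partners of the same regulators gave smaller values. Pdk4, the kinase that spares glucose when fat is burnt, was at 0.18 (adjusted P = 0.800) and the receptor Esrra at 0.06 (adjusted P = 0.884). By list, 5 of 19 other uptake and activation genes (26.3%, 3 higher and 2 lower) were at P below 0.05. So were 3 of 12 other PPAR-responsive genes (25.0%, 1 higher and 2 lower), 1 of 7 lipase genes and 1 of 21 other regulators. The medians of these lists were 0.03, 0.19, -0.06 and 0.04. The share was 10.7% over all genes tested and 9.35% over the 107 other pathway genes together. These small lists were not tested against either share. At the same limit there were 0 of 23 other mitochondrial oxidation genes, 0 of 17 other peroxisomal genes and 0 of 5 other carnitine genes, with medians of 0.08, 0.15 and -0.09. The carnitine transporter Slc22a5 was counted among the other uptake and activation genes. Clock genes, several of whose proteins time metabolic genes, moved with the groups: of 15, 8 were higher and 2 lower at P below 0.05. The lower ones were Arntl (-0.96) and Nfil3 (-0.87). The sum over all 15, which mixes both directions, was 812 to 1309 CPM in BLM+HBO against 516 to 725 CPM in BLM. Tef alone held 205 to 341 CPM of it in BLM+HBO and 107 to 165 CPM in BLM. The hour of collection is not given in the sources used here, and its part in these values was not tested.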

How the data were processed

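RNA-seq libraries, 1 per mouse, came from lungs of 4 BLM and 3 BLM+HBO mice. The authors mapped reads to GRCm38 by HISAT2, then used featureCounts for the counts of each gene (both named as 2.2.0 in the submitters' processing notes), and the deposited values are raw counts, without normalization. At the counter's default settings, reads are counted without strand, and those that map to several places or several genes are left out. Symbols came from GENCODE vM21. Of 55401 genes, 17465 passed filterByExpr (minimum count 10, minimum total 15). The test was edgeR 4.0.16 (R 4.3.3), quasi-likelihood with TMM factors between 0.964 and 1.036 and a common biological coefficient of variation of 0.222, with P values adjusted by Benjamini-Hochberg over all genes, and BLM as the reference. CPM used the TMM factors, log2 CPM a prior count of 2, and 95% intervals the test's SE and degrees of freedom. DESeq2 1.42.0, limma 3.58.1 and other settings were alternatives. Fits were tested on simulated data. Libraries of a group differed beyond sampling noise, with a chi-square per gene of 22.1 or more (combined count of 20 or more). Between groups it ran from 13.0, for BLM 4 with BLM+HBO 2, to 114.6. The pair of BLM 3 with BLM+HBO 2 (19.0) also lay below each pair of libraries within a group. The labels do not say whether mice shared a cage or batch.

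The members, the other lists and the markers were chosen with earlier results of these data known. By the naming rule, all members were named, with values by mouse for those at P below 0.05 and for 10 set genes, and other pathway genes were named if past both limits or on a set list of 5. Some of these other genes are counted but not reported by name here. Hadh, Acadvl, Slc22a5, Acsf2, Mgll and the genes sharing exons with members were added after their values were seen. The upstream sequences are from RefSeq. For the marker lists whose numbers of calls were not given above, the higher and lower genes at P below 0.05 were as follows: white adipocyte 1 and 0, brown adipocyte 0 and 0, alveolar type 1 cell 0 and 1, alveolar macrophage 2 and 3, capillary endothelium 0 and 0, club cell 4 and 0, ciliated cell 0 and 0, resting fibroblast 2 and 1, mesothelium 0 and 3, hepatocyte 0 and 0, erythroid cell 0 and 0, and proliferation 0 and 3. Skeletal muscle gave 0 and 1. In the white adipocyte list, 1 symbol of 10 was not matched.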

Additional observations from a re-analysis of the deposited data

Results flagged for a closer look

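In 42 sets of values from the 4 BLM mice (the 31 members, 10 other pathway genes and the total count), the mouse at one end was set against the gap to its nearest neighbour. Such a check picks out about 1 set in 20 by chance, and 2 were picked out. BLM 4 had a log2 CPM of 5.73 for Eci2, below the other BLM mice at 5.81 to 5.82, a gap that is 0.873 of the range although small in size. BLM 4 also had the largest total count of its group, 19002242, against 18436336 to 18452895 in the other BLM mice. The 3 BLM+HBO mice are too few for this check.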

How the results depend on the processing

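The median log2 fold change of the members stayed between 0.017 (without BLM+HBO 1) and 0.10 with a mouse left out. The interval count, added after the data were seen, stayed between 17 and 22 over all alternatives. With each mouse left out, members past both limits ranged from 0 to 1 and members at P below 0.05 from 0 to 6. The share of all genes ranged from 3.70% to 10.7% past both limits and from 5.70% to 15.9% at P below 0.05. Both shares were lowest without BLM+HBO 1 and highest without BLM+HBO 2. Members below an adjusted P of 0.05 ranged from 0 to 1. Members without overlap ranged from 1 to 9. The share of all genes without overlap is not given for these fits, so that range has nothing to be set against. Other pathway genes past both limits ranged from 3 (without BLM 1 or BLM+HBO 3) to 11 (without BLM+HBO 2). With no filter on low counts, 3 members were at P below 0.05 (Acsl1, Fabp3 and Hadh), against 9.14% of all genes. At a fold change above 1.2, 1 member passed both limits. Between mice of the same replicate number, deviations from the group means correlated at -0.01, -0.07 and 0.16. So few pairs cannot settle whether the numbers pair the mice. With the replicate block, 0 members were at P below 0.05, against 11.3% of all genes, and 4 other pathway genes passed both limits. The cause was not tested. Log2 fold changes near 0 turned sign: Cd36 at 0.0067 with upper-quartile factors and 0.015 with the block, Slc25a20 at 0.021 with upper-quartile factors, 0.0016 with a filter of 1 CPM and 0.051 with the block, Etfa at -0.034 with the block, and Ppargc1b at 0.0051 by limma-trend and 0.057 with the block. With a mouse left out, they ranged from -0.11 to 0.072 for Cd36, -0.088 to 0.11 for Cpt1a, -0.065 to 0.062 for Slc25a20, -0.029 to 0.18 for Hadhb, -0.16 to 0.0020 for Echs1, -0.049 to 0.28 for Acaa2, -0.19 to 0.061 for Eci2, -0.057 to 0.078 for Etfa, -0.13 to 0.015 for Etfdh, -0.17 to 0.37 for Ppara and -0.38 to 0.30 for Ppargc1b. The tested members under about 2 CPM had intervals wider than 1.5-fold, as had Lpl, Hadh, Acsl1, Fabp3, Acot2, Etfb and Ppargc1a at higher levels.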
